A study of Homo sapiens with 6 samples.

Results

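The SR splicing factor genes SRSF1, SRSF2, SRSF3, SRSF4, SRSF5, SRSF6, SRSF7, SRSF9, SRSF10 and SRSF11 were followed through an Ago-RIP-seq experiment, which sequences the transcripts recovered with an antibody against Argonaute-2 (AGO2), the protein that carries microRNAs to their targets. The members were taken by name without a filter on their values, but with earlier results of these data known. They are 10 of the 60708 genes counted in every library. The related gene SRSF8 is not a member and is read below with the genes that SR proteins work with. MDA-MB-231 cells, a human line of triple-negative breast cancer, received 25 nM of a mimic of miR-99b-5p or of a scrambled control. They were harvested 18 hours later, and RNA was isolated from the AGO2 immunoprecipitate (AGO2-IP) and from the unbound material (flow-through). The mimic group has 2 AGO2-IP and 2 flow-through libraries, numbered by biological replicate, and the control group has 1 library of each fraction as labelled. A sample list that accompanies the study instead names the control libraries as biological replicates and gives them no fraction. The labels were followed here, but if that list is right, no ratio between the control libraries compares fractions, and the control of the mimic flow-through may not be a flow-through. All groups are of this 1 cell line, transfected transiently, and no untransfected or IgG library was analysed here. The question of the comparison was which transcripts the AGO2-IP holds in excess of the flow-through, and whether the mimic changes this for the SR genes.

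SR proteins bind exonic RNA through RNA recognition motifs at their N-terminus and recruit other parts of the spliceosome through a C-terminal domain rich in arginine and serine, the RS domain. Kinases of the SRPK and CLK families phosphorylate this domain, and TNPO3 imports the phosphorylated proteins into the nucleus. Several SR genes limit their own protein by splicing in a poison exon, which sends the transcript to nonsense-mediated decay, and SRSF1, SRSF3 and SRSF6 have been studied as oncogenes in breast and other tumours.

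The mature miR-99b-5p in RefSeq (GRCh38.p14) lies on the plus strand at chr19:51692618-51692639. Target transcripts carry the reverse complement of the seed, so the sense strand of the members' transcripts in GENCODE 44 was searched for ACGGGT, a match of 6 bases, and for its extension by a T before it, by an A after it or by both, the last a match of 8 bases. In canonical transcripts the match of 6 bases was found in 1 of the 10 SR genes, SRSF3, and in 14.9% of the 20046 canonical coding transcripts of the genome. No annotated transcript of the other members holds it. The SRSF3 match is the full one of 8 bases, in the 3′ UTR within exon 6 of ENST00000373715.11, at chr6:36603889-36603912 on the plus strand for the bases shown. A match of 8 bases in the 3′ UTR is held by 47 of the canonical coding transcripts (0.2345%). The miRNA is printed with its seed, bases 2 to 8, in capitals, and the SRSF3 site with the match in capitals, because it is the only place where the members' sequence meets the mimic's seed.
miR-99b-5p: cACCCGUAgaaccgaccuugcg
SRSF3 site: gtaaaaaggacagtTACGGGTAta

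Counts on genes ran from 38022779 to 48544756 in the 4 mimic libraries, and came to 7772149 in the control flow-through and 8076375 in the control AGO2-IP. The control libraries also differed in makeup, with 43.4% and 3.48% of gene counts on mitochondrial genes in the flow-through and the AGO2-IP, against at most 0.125% in a mimic library, so transfection and library makeup cannot be told apart between mimic and control. Markers of the line, VIM, CD44, MSN, AXL and ANXA1, lay between 59.0 and 2729 counts-per-million of all gene counts (CPM). The luminal genes ESR1, PGR and FOXA1 stayed at or below 0.991 CPM, GATA3 ran from 8.26 to 24.8, and CDH1, EPCAM, PTPRC and PECAM1 reached at most 11.8. The mimic flow-through libraries lay further apart than the AGO2-IP libraries. Over 13078 genes, the SD of the log2 difference between replicates was 1.44 in the flow-through and 0.840 in the AGO2-IP. Each level is an average over a culture, so fewer cells with a transcript and less of it per cell cannot be told apart.

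As a family, the SR genes took a larger share of the AGO2-IP than of the flow-through in every pairing of the mimic libraries. Summed over the members, they had 4032 and 2847 CPM in mimic AGO2-IP replicates 1 and 2, and 1288 and 482 CPM in mimic flow-through replicates 1 and 2. The control AGO2-IP had 1461 CPM and the control flow-through 524. Of counts on nuclear coding genes alone, which leaves out the mitochondrial share, the SR genes took 0.408% and 0.289% in mimic AGO2-IP replicates 1 and 2, 0.148% and 0.0663% in mimic flow-through replicates 1 and 2, 0.154% in the control AGO2-IP and 0.104% in the control flow-through. The library labelled AGO2-IP was thus the higher of the control pair on both scales, by less on the second, and the second mimic flow-through library was the lowest of the 6. Counting error is small beside these distances: the share in the second mimic flow-through library, 0.0482% of gene counts, had a 95% Wilson interval from 0.0476% to 0.0488%.

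The fractions of mimic-transfected cells were compared over 13078 genes by the quasi-likelihood test of edgeR, and calls needed a change of 1 or more on the log2 scale and a Benjamini-Hochberg adjusted p of at most 0.05. Of the 10 SR genes, 9 had a log2 fold change above 0 and 7 reached 1, where 47.0% and 20.0% of all tested genes did. The median over the members was 1.90, against -0.11 over all tested genes. None was called without a replicate block (0.245% of tested genes were called higher and 0.413% lower), although SRSF1, SRSF3, SRSF4, SRSF5, SRSF7 and SRSF9 had an unadjusted edgeR p under 0.05 and a change of 1 or more, as did 10.6% of tested genes. With the replicate number as a block, 6 were called higher in the AGO2-IP, namely SRSF1, SRSF2, SRSF3, SRSF4, SRSF5 and SRSF7, against 4.6% of all tested genes, and none lower (5.08% of all). Without the first mimic flow-through library 8 were called higher, all but SRSF9 and SRSF11, against 20.2% of the genes then tested, and without the second SRSF4 alone was (1.9%). PyDESeq2 without a block also called 6 higher, with SRSF9 in place of SRSF2 (6.43% of all tested genes were called higher). The p-values rest on 2 libraries per fraction and on a spread that both tools share between genes, so they do not measure a gene's own spread alone. In this fit with the block, the members' p-values match a normal distribution of the log2 fold change over its SE. They thus rest on the shared spread, and a gene's own spread did not measurably enter them.

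**Figure D1:**
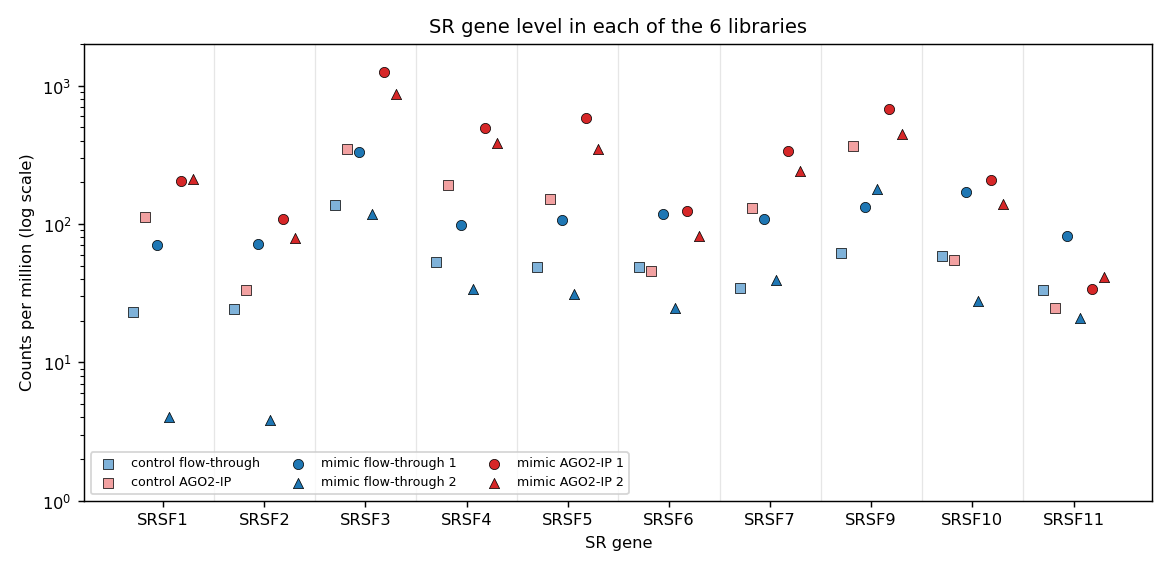
Level of each SR gene in CPM (log axis) in the 6 libraries, 1 point per library, circles and triangles for mimic replicates 1 and 2, and squares for the control libraries. In 7 genes both mimic AGO2-IP points (red) lie above both mimic flow-through points (blue), and in SRSF6, SRSF10 and SRSF11 they overlap. SRSF1 and SRSF2 drop to 4.02 and 3.83 CPM in the second mimic flow-through library.

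SRSF1, SRSF4, SRSF5, SRSF6 and SRSF9 encode the SR proteins with a pair of RNA recognition motifs. SRSF4, the gene of SRp75 (ENSG00000116350.17, minus strand of chromosome 1, 29147743 to 29181900 in GRCh38), had 498 and 386 CPM in mimic AGO2-IP replicates 1 and 2 against 98.4 and 34.0 in mimic flow-through replicates 1 and 2. The groups did not overlap, and the smallest difference between a library of one and a library of the other was 2.21 on the log2 scale. This gave a log2 fold change of 2.80 (SE 0.652, adjusted p = 0.0625 by edgeR's quasi-likelihood test, Benjamini-Hochberg adjusted). It was 2.88 with the replicate block (adjusted p = 0.00491 by edgeR). Without the second mimic flow-through library SRSF4 was the one member called (2.34, adjusted p = 0.0434 by edgeR), and SRSF9 missed it there at an adjusted p of 0.0501 by edgeR.

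SRSF5, the gene of SRp40 (ENSG00000100650.16, plus strand of chromosome 14, 69726900 to 69772005), had 582 and 348 CPM in mimic AGO2-IP replicates 1 and 2. In the flow-through it had 106 and 31.3 CPM, so that the lowest AGO2-IP library was well above the highest flow-through library. Its log2 fold change of 2.83 was the highest of the family (SE 0.685, adjusted p = 0.0660 by edgeR, Benjamini-Hochberg adjusted). With the block it was 2.93 (adjusted p = 0.00402 by edgeR). Its order with SRSF4 and SRSF1 is not resolved, since these values lie within 1 SE of each other.

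SRSF1, the founding member of the family, also known as ASF or SF2 (ENSG00000136450.13, minus strand of chromosome 17, 58000919 to 58007346), had 206 and 212 CPM in mimic AGO2-IP replicates 1 and 2. In the flow-through it had 70.0 CPM in the first library and 4.02 in the second. Its AGO2-IP values were the closest pair in the family, and its flow-through values were among the farthest apart. SRSF1 had a log2 fold change of 2.68 (SE 0.954, adjusted p = 0.137 by edgeR, Benjamini-Hochberg adjusted) and 3.59 with the block (adjusted p = 0.00286 by edgeR). It was 1.76 without the second mimic flow-through library and 5.37 without the first.

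SRSF9, the gene of SRp30c (ENSG00000111786.9, minus strand of chromosome 12, 120461672 to 120495946), had 682 and 451 CPM in mimic AGO2-IP replicates 1 and 2, and 133 and 178 in mimic flow-through replicates 1 and 2. It was the only member with the higher flow-through value in the second library. SRSF9 had a log2 fold change of 1.76 (SE 0.623, adjusted p = 0.134 by edgeR, Benjamini-Hochberg adjusted) and 1.81 with the block (adjusted p = 0.0805 by edgeR). SRSF6, the gene of SRp55 (ENSG00000124193.16, plus strand of chromosome 20, 43457893 to 43466046), had 125 and 81.5 CPM in mimic AGO2-IP replicates 1 and 2 against 118 and 24.7 in the flow-through. Here the first flow-through library lay between the AGO2-IP libraries, and the log2 fold change of 0.64 was smaller than its SE of 0.693 (adjusted p = 0.593 by edgeR). Without the second mimic flow-through library the value of SRSF6 was -0.02.

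SRSF2, SRSF3 and SRSF7 encode SR proteins with a single RNA recognition motif, and SRSF7 adds a zinc knuckle. SRSF3, the gene of SRp20, the smallest SR protein (ENSG00000112081.17, plus strand of chromosome 6, 36594353 to 36605600), was the most counted member of both mimic AGO2-IP libraries, with 1249 and 866 CPM in mimic AGO2-IP replicates 1 and 2, and 330 and 118 in flow-through replicates 1 and 2. The groups did not overlap. SRSF3 had a log2 fold change of 2.30 (SE 0.633, adjusted p = 0.0848 by edgeR, Benjamini-Hochberg adjusted) and 2.36 with the block (adjusted p = 0.0135 by edgeR). This is the member with the seed match printed above. Its log2 fold change and those of SRSF1, SRSF4 and SRSF5, which hold none, lie within 1 SE of each other, so that their order is not resolved. SRSF2, SRSF6, SRSF7, SRSF9, SRSF10 and SRSF11 hold none either and were lower, from 2.03 (SRSF7) to -0.35 (SRSF11). Whether the seed match bears on these values was not tested.

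SRSF7, the gene of 9G8 (ENSG00000115875.19, minus strand of chromosome 2, 38743599 to 38751494), had 338 and 242 CPM in mimic AGO2-IP replicates 1 and 2, and 108 and 39.1 in flow-through replicates 1 and 2, again without overlap. The log2 fold change was 2.03 (SE 0.635, adjusted p = 0.108 by edgeR, Benjamini-Hochberg adjusted), and 2.10 with the block (adjusted p = 0.0477 by edgeR). SRSF2, also known as SC35, whose protein marks nuclear speckles (ENSG00000161547.17, minus strand of chromosome 17, 76734115 to 76737333), had 109 and 79.2 CPM in mimic AGO2-IP replicates 1 and 2. In the flow-through it had 72.1 CPM in the first library and 3.83 in the second, a wider gap than in any other member. The log2 fold change was 1.49 (SE 0.936, adjusted p = 0.346 by edgeR, Benjamini-Hochberg adjusted) and 2.44 with the block (adjusted p = 0.0459 by edgeR), and it fell close to 0 in counts kept by strand, as described below.

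SRSF10 and SRSF11 encode more distant relatives in the family. SRSF10, whose protein SRp38 represses splicing when dephosphorylated (ENSG00000188529.15, minus strand of chromosome 1, 23964347 to 23980927), had 209.7 and 140.2 CPM in mimic AGO2-IP replicates 1 and 2, and 171 and 27.6 in flow-through replicates 1 and 2. The groups overlapped, and the log2 fold change was 0.94 (SE 0.732, adjusted p = 0.444 by edgeR, Benjamini-Hochberg adjusted). SRSF11, the gene of p54 (ENSG00000116754.13, plus strand of chromosome 1, 70205682 to 70253052), had 33.8 and 41.4 CPM in mimic AGO2-IP replicates 1 and 2, and 81.6 and 20.9 in flow-through replicates 1 and 2. It was the one member with a log2 fold change below 0, at -0.35 (SE 0.670, adjusted p = 0.774 by edgeR), and its AGO2-IP values lay between its flow-through values.

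Both mimic AGO2-IP libraries were above both flow-through libraries in 7 of the 10 members, against 28.1% of all tested genes. None had both below, against 28.5% of all. The smallest difference ran from 0.38 (SRSF2) to 2.21 (SRSF4) among these 7.

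**Figure D2:**
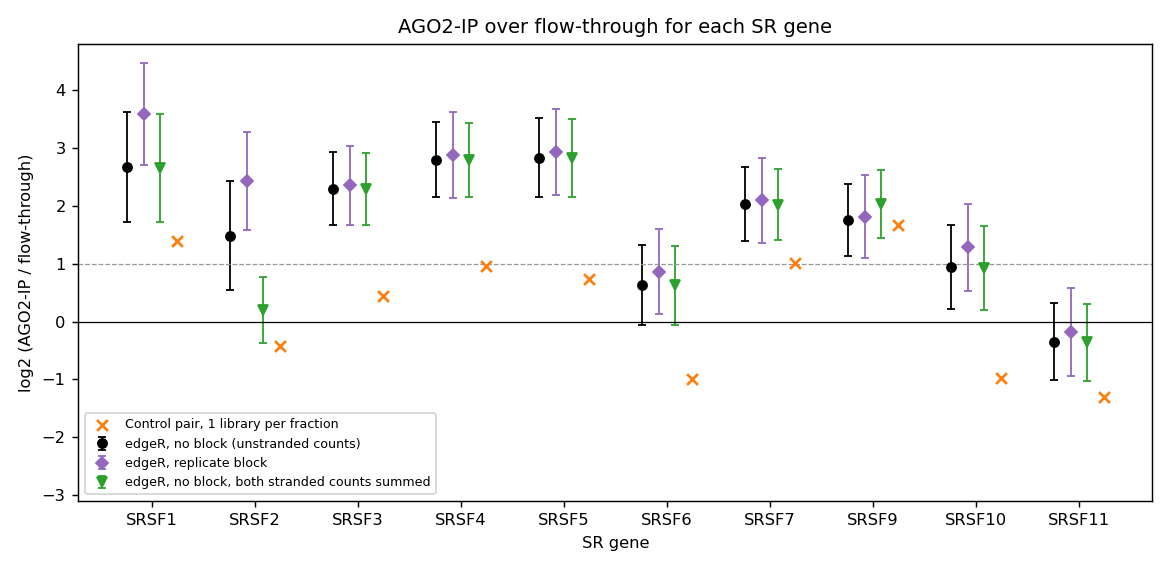
log2 of AGO2-IP over flow-through for each SR gene, with bars of 1 standard error for the edgeR fits on the 4 mimic libraries and a cross for the control pair, which has 1 library per fraction and no error. The dashed line marks a log2 value of 1. SRSF2 falls from 1.49 to 0.20 when stranded counts are used, and the control crosses of SRSF2, SRSF6, SRSF10 and SRSF11 lie below 0.

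The spread of the flow-through libraries bears on every member. On normalized counts, 9 of the 10 SR genes were higher in the first mimic flow-through library than in the second, as were 52.4% of the 11747 tested coding genes. The median difference over the members was 1.37 on the log2 scale, from 0.98 (SRSF7) to 3.73 (SRSF2) among the 9, and it was -0.92 for SRSF9. Across the coding genes this difference ran with the GC content of the canonical transcript (Spearman's rho -0.755 across genes, which share 2 libraries and are not independent replicates), while the difference between the AGO2-IP libraries did not (rho -0.00626). The log2 fold change of AGO2-IP over flow-through also ran with GC content across these genes (rho -0.545). The shares and medians of all tested genes set beside the members are not matched for GC content. With each library's GC trend removed the members' median log2 fold change was 1.60, against 0.07 over all tested genes. Of the SR genes, 7 were below the median GC content of tested coding genes, 48.0%, with SRSF10 at 35.9%, and SRSF2 (49.6%), SRSF4 (51.4%) and SRSF9 (52.1%) were above it.

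With each library's trend on GC content removed, edgeR called SRSF3, SRSF4, SRSF5 and SRSF9 higher in the AGO2-IP (4.58% of all tested genes were called higher). Their log2 fold changes were 1.67, 2.99, 2.46 and 2.13, with adjusted p-values by edgeR of 0.0457, 0.0277, 0.0277 and 0.0338. With both the block and the GC step, 7 members were called, all but SRSF6, SRSF10 and SRSF11 (14.9% of all tested genes were called higher). The GC step brought the flow-through difference of SRSF3 from 0.98 to -0.16 and that of SRSF7 to -0.08. It left 3.88 for SRSF2 and 2.38 for SRSF1. The step uses the GC content of the whole canonical transcript. The unstranded counts of SRSF1, SRSF2, SRSF6 and SRSF9 leave out read pairs on bases shared with another gene, whose GC content differs, as described below. For these members the step may therefore not fit the bases counted.

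**Figure D3:**
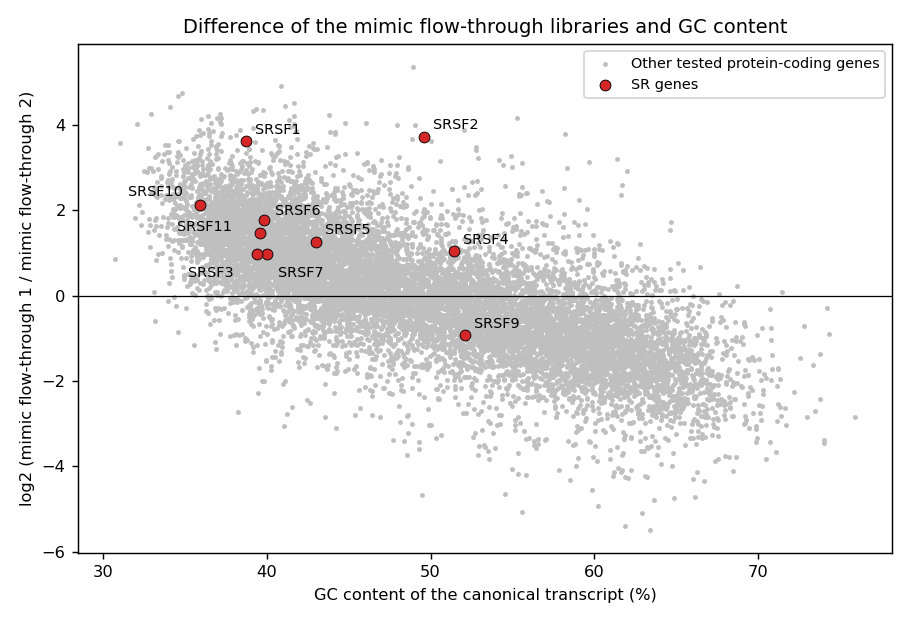
Log2 ratio of mimic flow-through library 1 over library 2 against the GC content of the canonical transcript, for 11747 tested coding genes (grey) and the 10 SR genes (red). The SR genes with GC content near 40% lie in the upper left, with SRSF1 (3.62) well above the others, SRSF9 lies below 0, and SRSF2 lies at 3.73, far above the genes of its GC content.

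The 2 members with the widest flow-through gap, SRSF1 and SRSF2, are genes whose counts leave out much of the transcript. So is SRSF9, which shares the largest part of its canonical transcript with another gene (42.6%, against 31.6% for SRSF1 and 30.1% for SRSF2). Its flow-through difference was -0.92. Whether the bases left out bear on the gap was not tested. A read pair that falls on exons of 2 genes is counted on neither, and in unstranded counts this includes genes on the opposite strand. In GENCODE 44, 568 of the 666 coding bases of SRSF2 (85.3%) lie on exons of MFSD11 on the opposite strand. Counted by strand and summed, SRSF2 had 178 and 192 CPM in mimic flow-through replicates 1 and 2, 247 and 201 in mimic AGO2-IP replicates 1 and 2, 74.6 in the control flow-through and 99.1 in the control AGO2-IP. The gap between the flow-through libraries was thus not seen in these counts. The unstranded count left out 98.0% of the SRSF2 read pairs of the second mimic flow-through library and between 55.7% and 67.6% in each of the other libraries. The log2 fold change of SRSF2 was then 0.20 (SE 0.567, adjusted p = 0.857 by edgeR), and 0.22 with the block (adjusted p = 0.864 by edgeR). Reads did not keep their strand, as 49.0% to 55.1% of the stranded counts of a library fell in the first column. The summed counts of SRSF2 therefore take in all pairs over the shared bases, whether from SRSF2 or MFSD11, and these cannot be told apart. The part of SRSF2 shared with another gene has 67.8% GC and the rest 41.7%.

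For SRSF1 no column recovers the coding sequence. All 747 of its coding bases, and 1690 of the 5343 bases of the canonical transcript, are also exons of ENSG00000266086, a gene annotated as coding on the same strand that has 0 counts in every library and column. The counts of SRSF1 are thus counts of its remaining transcript, chiefly in its 3′ UTR of 4487 bases, with 34.4% GC against 48.0% in the shared part. One stretch of the shared part can be read from another gene. ENSG00000279069, on the opposite strand, covers 440 bases at the 5′ end of SRSF1 (58006907 to 58007346 on chromosome 17), and its stranded counts take read pairs of either orientation there, so that pairs from SRSF1 and from this gene cannot be told apart. They came to 368 and 419.9 CPM in mimic AGO2-IP replicates 1 and 2, and to 88.6 and 72.1 in mimic flow-through replicates 1 and 2, without the drop in the second library seen in SRSF1's own count. Their log2 fold change was 2.25 (SE 0.578, adjusted p = 0.0855 by edgeR) and 2.25 with the block (adjusted p = 0.0254 by edgeR). This stretch was chosen after its values were seen.

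SRSF9 shares 491 of its 1152 canonical bases with GATC on the opposite strand. The shared part has 38.5% GC and the rest 62.2%. Its stranded sums, which take in pairs of either gene over the shared bases, were 1328 and 783 CPM in mimic AGO2-IP replicates 1 and 2, and 286 and 217 in flow-through replicates 1 and 2. In these counts SRSF9 no longer ran against the other members, and its log2 fold change was 2.03 (SE 0.589, adjusted p = 0.103 by edgeR), or 1.98 with the block, where it was called (adjusted p = 0.0406 by edgeR; 4.83% of genes were called higher). SRSF6 shares 63.2% of its coding bases with ENSG00000288000 on the same strand, another gene at 0 counts throughout. The shared part of SRSF6 has 52.9% GC and the rest 37.5%, and no column recovers it. In the 7 members other than SRSF1, SRSF2 and SRSF9, the stranded sum was within 2 counts of the unstranded count in every library.

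**Figure D4:**
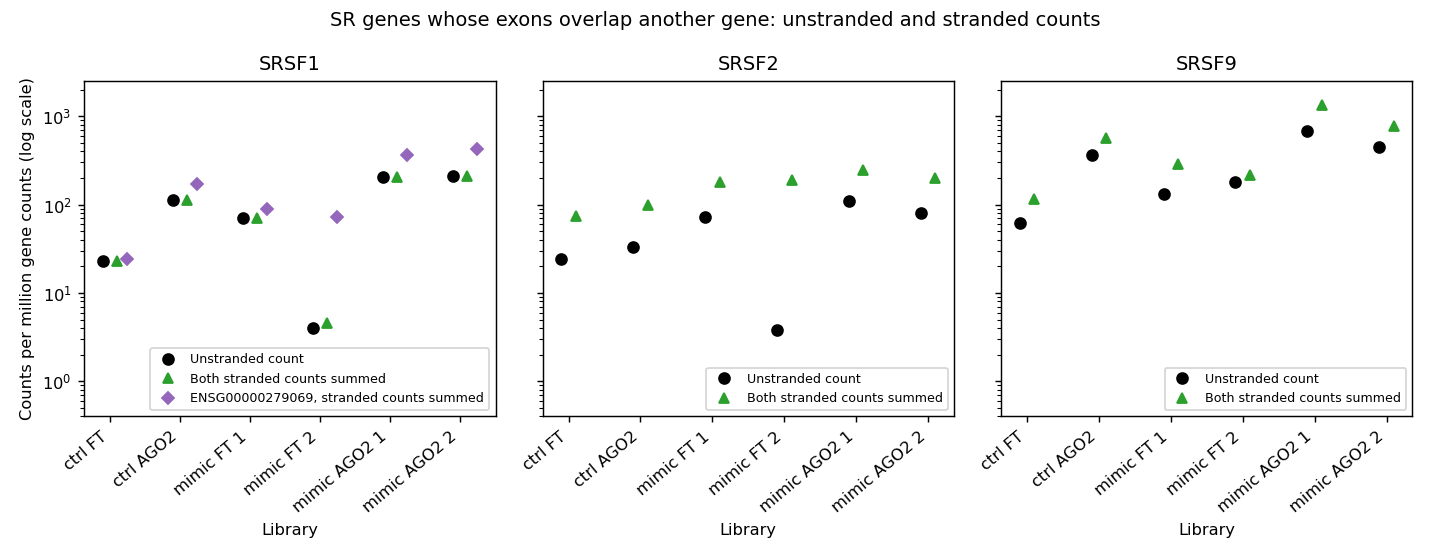
CPM (log axis) of SRSF1, SRSF2 and SRSF9 in each library, as unstranded counts (circles) and as both stranded counts summed (triangles), with the stranded sum of ENSG00000279069 over the 5′ end of SRSF1 (diamonds). FT is flow-through and AGO2 is AGO2-IP. In the second mimic flow-through library SRSF2 has 3.83 CPM unstranded and 192 CPM stranded, and the stretch that SRSF1 and ENSG00000279069 share has 72.1 CPM where SRSF1's own count is 4.02.

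In cells with the scrambled control, the members split by fraction as labelled. The log2 ratio of AGO2-IP over flow-through, on TMM-normalized counts and without a test since each fraction has 1 library, was at least 1 for SRSF9 (1.67), SRSF1 (1.39) and SRSF7 (1.02), where 15.9% of 8245 genes reached 1. SRSF4, SRSF5 and SRSF3 had 0.97, 0.73 and 0.45. SRSF2 (-0.43), SRSF10 (-0.98), SRSF6 (-0.99) and SRSF11 (-1.31) were below 0, and SRSF11 was the one at or below -1, where 18.1% of genes were. Counting error is small beside the distance of SRSF9 from SRSF11, with a 95% interval from 1.53 to 1.81 for SRSF9 and from -1.58 to -1.04 for SRSF11, covering counting error only. The intervals of SRSF7 (0.824 to 1.21) and SRSF4 (0.808 to 1.12) hold 1. Those of SRSF6 (-1.19 to -0.783) and SRSF10 (-1.17 to -0.790) hold -1, so the side of the line is not resolved for these. In unstranded counts SRSF6, SRSF10 and SRSF11 were thus the lowest 3 both in the control pair and in the mimic fit. On library size alone every control ratio was about 0.90 higher, so that SRSF2 turned to 0.47 and 6 members passed 1, as did 46.6% of genes, while SRSF6 (-0.09), SRSF10 (-0.08) and SRSF11 (-0.41) remained below 0.

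Mimic AGO2-IP over control AGO2-IP, every SR gene had a ratio above 0 in both mimic libraries, where 41.1% of 11467 genes did. The ratio was at least 1 for 8 members on the mean of both libraries (17.3% of genes), and for 6 of them in each library (12.2% of genes). SRSF10 was highest, with 2.04 and 1.52 in the single libraries. SRSF3, which holds the seed match, had 1.95 and 1.48, and SRSF5 and SRSF2, which hold none, had 2.04 and 1.35, and 1.82 and 1.41. SRSF9 (0.998 and 0.456) and SRSF11 (0.552 and 0.902), which also hold none, were lowest. Whether the seed match bears on these ratios was not tested. The order of neighbours is within the spread of the 2 mimic libraries, whose SD ran from 0.0683 (SRSF1) to 0.485 (SRSF5). With each library's GC trend removed the ratios were lower for all but SRSF2, SRSF4 and SRSF9. Then 9 members were above 0 in both libraries, where 4530 of 11467 genes were. At or above 1 there remained 3 members, where 1306 of 11467 genes were, namely SRSF2 (1.74), SRSF4 (1.54) and SRSF5 (1.28). SRSF3 had 0.998, SRSF1 0.280 and SRSF11 0.0230. The control library counts once in every one of these ratios, and its own spread is not known.

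Mimic flow-through over control flow-through, the replicates pointed apart. With the first mimic library all 10 ratios were above 0, from 0.16 (SRSF4) to 0.92 (SRSF7). With the second, 9 were below 0, down to -2.71 for SRSF1 and -2.85 for SRSF2, and SRSF9 was at 1.31. On the mean of both, SRSF2 was the one member past 1 in size, at -1.004 (10.2% of 12254 genes were at or below -1), with an SD of 2.61 between the libraries. Its ratio turned to 0.79 in stranded counts. No common direction of the SR genes in the flow-through was therefore measured. This comparison and the preceding ones share libraries and are not independent of each other.

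**Figure D5:**
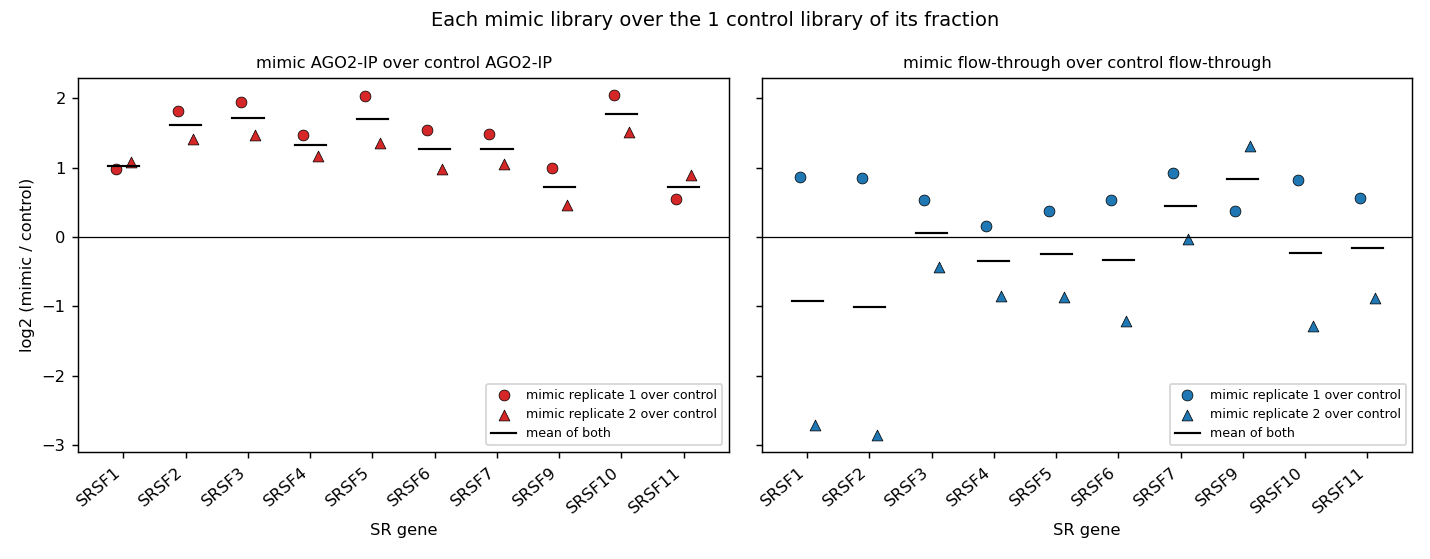
Log2 ratio of each mimic library over the 1 control library of the same fraction, for the AGO2-IP (left) and the flow-through (right). Circles are mimic replicate 1, triangles replicate 2 and bars the mean of both. All AGO2-IP points lie above 0, and in the flow-through 9 of the 10 triangles lie below 0.

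Per kilobase of the canonical transcript, levels of different SR genes can be set side by side. In the mimic AGO2-IP, SRSF9 was highest with 492 ± 142 CPM per kilobase (SD, n = 2), followed by SRSF5 with 311 ± 110, SRSF3 with 250.1 ± 64.1, SRSF4 with 192 ± 34.4 and SRSF7 with 123 ± 28.8. The neighbours SRSF5 and SRSF3, and SRSF3 and SRSF4, overlapped between libraries. Well below came SRSF2 with 49.9 ± 11.2, SRSF1 with 39.1 ± 0.800, SRSF6 with 23.7 ± 7.08 and SRSF10 with 22.8 ± 6.42, the last 2 overlapping, and SRSF11 was lowest with 9.50 ± 1.37. The mimic flow-through had SRSF9 first with 135 ± 27.8 and SRSF1 last with 6.92 ± 8.73. In the control flow-through SRSF9 led with 53.8 and SRSF1 was last with 4.31, and in the control AGO2-IP SRSF9 led with 319 and SRSF11 was last with 6.26. Divided by the bases that no other gene covers, SRSF9 rose to 857 and SRSF1 to 57.3 in the mimic AGO2-IP with the same order of all 10. Divided by the length of all annotated exons, SRSF3 (149) came before SRSF9 (143), SRSF7 before SRSF4 and SRSF1 before SRSF2. The canonical transcripts of the members ran from 1152 bases (SRSF9) to 7656 (SRSF10), where the median tested coding gene has 3492.

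The genes that SR proteins work with were read from a list of 40, of which 38 were tested, and SRSF12 (30 counts in all) and U2AF1 (144) were not. In the mimic fractions 28 of the 38 had a log2 fold change above 0 and 12 reached 1, where 47.0% and 20.0% of all tested genes did, and 3 reached -1. Their median was 0.70, against -0.11 over all tested genes. None was called without a block (0.245% of tested genes were called higher and 0.413% lower). At an unadjusted edgeR p under 0.05 and a change of 1 or more, 7 were higher and 1 lower, where 10.6% and 13.1% of all tested genes were. TRA2A, an SR-like splicing activator, was highest, with 371 and 239 CPM in the mimic AGO2-IP against 56.8 and 13.5 in the flow-through, a log2 fold change of 3.21 (SE 0.727, adjusted p = 0.0617 by edgeR). CLK4, a kinase of RS domains, had 2.15 (adjusted p = 0.125 by edgeR), and PRPF4B, a kinase of the spliceosome, had 1.65 (adjusted p = 0.172 by edgeR). With the replicate block TRA2A (adjusted p = 0.00128 by edgeR) and CLK4 (adjusted p = 0.0367 by edgeR) were the 2 of 38 called higher, a share near the 4.6% of all tested genes, and none was called lower (5.08% of all). The lowest were SCAF1 (-2.12), RSRC1 (-1.64) and U2AF2 (-1.18), the large subunit of the factor that reads the polypyrimidine tract, with adjusted p-values by edgeR of 0.132, 0.270 and 0.249. SCAF1 had 195 and 599 CPM in mimic flow-through replicates 1 and 2 against 113 and 93.7 in the AGO2-IP, and moved to -0.16 with the GC trend removed. U2AF2 likewise moved to -0.06 and RSRC1 to -1.996, and none of the 3 was called there. Of the 8 kinases of RS domains, 6 were above 0 and 4 reached 1, against the same 47.0% and 20.0% of all tested genes. TNPO3, the importer of SR proteins, had 0.88, the related SR gene SRSF8 had 0.83 and the export receptor NXF1 had 0.42, and none of the 3 was called (adjusted p = 0.373, 0.410 and 0.678 by edgeR). Mimic AGO2-IP over control AGO2-IP, 22 of the 38 partners had a log2 ratio of at least 1 (17.3% of all genes) and 0 of at most -1 (17.4%). Their median was 1.17, against 1.30 for the members. With the GC trend removed 21 of the 38 were at or above 1, where 1306 of 11467 genes were. The higher ratios over the control AGO2-IP were thus not particular to the SR genes.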

How the data were processed

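Members, partner list and tests were chosen with earlier results of these data known. Per the labels and the methods, the authors used FastQC 0.11.9 and cutadapt 3.5 on paired-end reads and STAR 2.7.11b with GRCh38, and deposited STAR's counts of read pairs per gene, unstranded and per strand, without normalization. The annotation release is not given in the sources used here. The unstranded counts were used, and rows naming no gene (21.4% to 95.0% of a library) were left out. Only uniquely mapped pairs on 1 gene are counted, so near-identical copies and overlapping genes lose counts. Of 60708 identifiers 60463 matched GENCODE 44, which gave names, coordinates and transcripts. No molecular identifiers are described, so intervals cover counting error only.

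The 4 mimic libraries were fitted with edgeR 4.0.16 (R 4.3.3; TMM, glmQLFit, glmQLFTest) over genes with at least 200 summed counts, without a block. As labelled, the replicate numbers pair the fractions by biological replicate. Same-numbered libraries deviated together (Pearson 0.324, Spearman 0.236, across 13078 genes). This sets a single difference in each fraction side by side over genes that share the 4 libraries and are not independent replicates. It therefore cannot decide whether the pairing holds. The standard error is the log2 fold change divided by the root of F. Comparisons with a control library are ratios on the log2 scale of CPM after TMM (prior count 2, at least 200 counts in the libraries compared). Alternatives were PyDESeq2 0.5.4, DESeq2 1.42.0 size factors, library size, other filters, each strand column, all libraries in one fit, coding genes only, a prior count of 0.5, the GC trend removed (lowess, span 0.2), the block, and each mimic library left out. The sum of both strand columns and the length shared with no other gene were chosen after seeing the data. Named genes are the members, the 3 highest and 3 lowest partners, the 5 genes of like pattern (1 is not reported here), and genes overlapping a member. TNPO3, SRSF8 and NXF1 were added for their role after their values were seen.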

Additional observations from a re-analysis of the deposited data

Results flagged for a closer look

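SRSF2 moved in opposite directions with and without the mimic. Its log2 fold change of AGO2-IP over flow-through was 1.49 with the mimic, and each of the differences between single mimic libraries was above 0, from 0.38 to 4.50, while the control ratio was -0.43. Whether mimic and control differ was not tested, as each control fraction, as labelled, has 1 library. The control ratio was 0.47 on library size alone, and the mimic value was 0.20 with both strand columns summed.

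PRPF4B, among the partner genes, had 1.65 with the mimic (0.75 to 2.75 over pairs of single libraries) against -0.33 in the control pair, which was not tested either. In CPM before TMM it was higher in the control AGO2-IP (38.4) than in the control flow-through (26.0), so the sign of its control ratio depends on the normalization. With the GC trend removed its mimic log2 fold change was 0.988. Counted as opposite were genes in which every difference between single mimic libraries lay on one side of 0 and the control ratio on the other. These were 953 of 8225 genes with both values (11.6%) and 1 of the 10 SR genes. They were also 2 of 16 named genes, here the members and the 3 highest and 3 lowest partners. CLK4, among these 16, had no control ratio and could not be counted. The remaining partner genes were left out of this count, so PRPF4B need not be the only partner gene of this kind. SRSF6 and SRSF10 also had a mimic log2 fold change above 0 (0.64 and 0.94) and a control ratio below 0 (-0.99 and -0.98), but their mimic fractions overlapped.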

How the results depend on the processing

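All results of the mimic fractions rest on 2 libraries a side, and the control ratios on 1. The number of SR genes called was 0, and it was also 0 with DESeq2 size factors, library size alone, filterByExpr, either strand column, all 6 libraries in one fit, coding genes only and both strand columns summed. It was 4 with no low-count filter, 6 with the replicate block, 6 with PyDESeq2, 4 with the GC trend removed, 7 with the replicate block and the GC trend removed, and 6 with the replicate block on both strand columns summed. Leaving out each mimic library gave 0 to 8, with 8 without the first and 1 without the second mimic flow-through library. A fit that leaves a fraction with 1 library assumes that this library varies like those of the other fraction. Partner genes called were 0, and 1, 2, 3, 4, 9 and 2 under those 6 settings in the same order. The 9 are 8 higher and 1 lower of 38 tested, where 1955 genes were called higher and 1181 lower of 13078. Calls thus rose over all genes too, and these counts are no result about the partner genes.

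Over all genes, 32 were called higher and 54 lower, of 13078 tested. The number tested was 43635 with no low-count filter, 17758 with filterByExpr, 13852 with column 3, 13736 with column 4, 11747 with coding genes only and 15308 with both columns summed. With DESeq2 size factors they were 13 and 33, with library size alone 9 and 35, with filterByExpr 17 and 30, with no low-count filter 419 and 204, with the replicate block 601 and 664, with column 3 10 and 28, with column 4 2 and 12, with coding genes only 0 and 0 (2851 with an unadjusted edgeR p under 0.05), with the GC trend removed 599 and 293, with the block and the GC trend removed 1955 and 1181, with both columns summed 5 and 24, with the block on both columns summed 739 and 759, and with PyDESeq2 841 and 1077. With a library left out they ran from 2 to 2476 higher and from 20 to 2527 lower, the highest being without the first mimic flow-through library. The cause of these moves was not tested.

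Of 180 log2 fold changes of single SR genes under an alternative, 136 kept direction and side of the threshold, 42 passed it, and 2 reversed: SRSF6 without mimic flow-through replicate 2 (-0.0232; 1.73 without replicate 1) and SRSF11 without replicate 1 (0.523; -0.935 without replicate 2). In the control pair, 3 members reached 1 and 1 reached -1. On library size alone they were 6 and 0, and with column 4 3 members reached -1. In the AGO2-IP, 8 members reached 1 over the control, and 3 with the GC trend removed, and 7 in each fit without a mimic library. In the flow-through, 0 reached 1 and 1 reached -1. On library size alone they were 1 and 0, with either strand column or both summed 0 reached -1, and with a mimic library left out 0 to 1 reached 1 and 0 to 4 reached -1. The ratio of SRSF2 there reversed to 0.76 with column 3, 0.79 with column 4, 0.79 with both summed and 0.684 without mimic flow-through replicate 2 (-2.94 without replicate 1). The search of all transcripts found the seed match in the same 1 gene.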

Other observations

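Over the 6 libraries the members did not all move alike. The correlation (Pearson) of a member's log2 CPM with the mean of the other members was lowest for SRSF11 (0.521) and SRSF9 (0.730) and highest for SRSF5 (0.980) and SRSF3 (0.979). The 4 coding genes named for a pattern most like the family mean, among 4391 with at least 200 counts in every library, were PDS5A (0.998), SLC25A24 (0.997), SNRPE (0.996) and MORF4L1 (0.996). The 6 points come from 4 groups and share their libraries, so these values are a description. The annotated pseudogenes of the members hardly drew reads, with at most 52 counts in all 6 libraries together (SRSF6P2) and 47 for SRSF9P1.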
